A study of Homo sapiens with 10 samples.

Results

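The SCAN-domain zinc finger genes described here are the genes on any chromosome whose symbol begins with ZSCAN or ZKSCAN followed by a digit. Of 58884 genes in the count tables, 38 met this rule. They comprised 28 coding genes (7 named ZKSCAN and 21 named ZSCAN), 5 long non-coding RNA genes and 5 pseudogenes. ZKSCAN8P1 was placed with the pseudogenes for its symbol, although the annotation lists it as coding. RNA was measured in HCT116, a human colorectal carcinoma line (6 libraries, replicates 1, 2, 3, 7, 8 and 9), and in its derivative DNMT1 KO (4 libraries, replicates 1 to 4), in which DNMT1, the maintenance DNA methyltransferase gene, was targeted. The derivative is a single established line given by the laboratory that made it, and the study describes it as a hypomorph that still makes some truncated DNMT1. Neither line received a further treatment, and both were grown in McCoy's 5A medium with fetal calf serum. The labels place the libraries in 4 batches. Batch 1 holds replicate 1 of each group and batch 2 holds replicates 2 and 3 of each group, whereas batch 4 is made of HCT116 replicates 7, 8 and 9. Of the libraries used, just DNMT1 KO replicate 4 belongs to batch 3.

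The SCAN domain is a leucine-rich stretch of the protein through which these factors pair with themselves and with one another. It usually sits at the start of a protein that ends in an array of C2H2 zinc fingers, which bind DNA. The ZKSCAN proteins carry a KRAB domain as well, which in many zinc finger proteins recruits the corepressor TRIM28 and, through it, histone methyltransferase and deacetylase activity. Many genes of the family lie in clusters formed by duplication, and several, such as ZSCAN4 and ZSCAN10, are known for their activity in early embryos or pluripotent cells rather than in the adult gut. DNA methylation of CpG dinucleotides at a promoter is a common mark of silent genes, and ZSCAN18 is known as a gene whose promoter is often methylated in tumours of the digestive tract. DNA methylation was not analysed here.

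The promoters of the family differed widely in CpG number. RefSeq start sites on GRCh38.p14 were matched by symbol to 27 of the 38 members, taking the start nearest to that in the count tables, and the 250 bases before the start were read. These windows held 2 to 33 CpG dinucleotides with a median of 18, against a median of 11 over all 35116 RefSeq windows of this length. The windows of 6 members are shown, each 5′ to 3′ with CpG in capitals: the first is the single member called in the comparison of the lines, the next ones are those with an adjusted p under 0.05 without reaching the fold limit, and the last ones are members that stayed at or near 0 in both lines despite very different CpG content.
ZKSCAN7: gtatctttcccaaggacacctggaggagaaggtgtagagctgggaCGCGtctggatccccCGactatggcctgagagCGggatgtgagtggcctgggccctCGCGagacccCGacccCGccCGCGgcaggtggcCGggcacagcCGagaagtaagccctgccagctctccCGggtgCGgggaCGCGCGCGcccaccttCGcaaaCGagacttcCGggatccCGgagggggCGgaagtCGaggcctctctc
ZSCAN2: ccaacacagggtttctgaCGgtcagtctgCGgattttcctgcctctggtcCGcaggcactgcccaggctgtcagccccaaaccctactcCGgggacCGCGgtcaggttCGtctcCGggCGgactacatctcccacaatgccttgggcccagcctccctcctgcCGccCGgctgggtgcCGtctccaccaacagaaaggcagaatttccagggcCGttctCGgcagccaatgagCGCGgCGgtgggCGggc
ZSCAN31: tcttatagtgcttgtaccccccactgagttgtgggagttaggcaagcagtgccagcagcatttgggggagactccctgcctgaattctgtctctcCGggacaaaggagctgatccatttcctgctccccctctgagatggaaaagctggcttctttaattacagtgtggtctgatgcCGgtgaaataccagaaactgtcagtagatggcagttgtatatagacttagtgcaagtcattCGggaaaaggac
ZSCAN1: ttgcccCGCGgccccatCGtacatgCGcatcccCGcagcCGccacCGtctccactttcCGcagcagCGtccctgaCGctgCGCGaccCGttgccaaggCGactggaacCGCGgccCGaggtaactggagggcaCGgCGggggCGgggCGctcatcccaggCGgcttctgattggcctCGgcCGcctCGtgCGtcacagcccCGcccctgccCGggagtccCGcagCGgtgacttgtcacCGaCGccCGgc
ZSCAN18: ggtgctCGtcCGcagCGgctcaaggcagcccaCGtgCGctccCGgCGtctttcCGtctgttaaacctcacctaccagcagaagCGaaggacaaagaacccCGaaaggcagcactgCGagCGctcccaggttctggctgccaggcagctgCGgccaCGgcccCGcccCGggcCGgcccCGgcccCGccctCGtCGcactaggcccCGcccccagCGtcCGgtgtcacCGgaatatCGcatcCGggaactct
ZSCAN4: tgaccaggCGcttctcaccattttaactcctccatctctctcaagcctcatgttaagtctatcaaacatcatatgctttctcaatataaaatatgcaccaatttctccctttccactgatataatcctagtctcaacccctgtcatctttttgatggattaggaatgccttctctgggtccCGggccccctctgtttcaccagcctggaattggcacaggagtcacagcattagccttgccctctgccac
The ZKSCAN7 window (chr3:44554943-44555192, plus strand) held 24 CpG, and 23.7% of all windows held as many or more. For ZSCAN2 (chr15:84600759-84601008, plus strand) the number was 18. For ZSCAN31 (chr6:28356272-28356521, minus strand) it was 3, at the most upstream of 3 RefSeq starts. ZSCAN1 (chr19:58033775-58034024, plus strand) held 33, the highest number among the matched members, and ZSCAN18 (chr19:58118405-58118654, minus strand) held 27. ZSCAN4 (chr19:57668685-57668934, plus strand) held 2, the lowest.

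Letters that match known factor motifs were counted on both strands of the same windows, as a description only. The ETS letters CCGGAA were present in 14 of the 27 matched members (51.9%) and in 14.5% of all windows. The GC box letters GGGCGG, read by Sp and KLF factors, were present in 15 members (55.6%) and in 42.6% of all windows. Bases could be counted for both motifs where they overlapped. Both motifs contain a CpG, and the member windows held more CpG (median 18) than all windows (median 11). The shares were not matched for CpG number, and all windows include several starts for some genes. Whether the members differ from other promoters of like CpG number was not tested. ZKSCAN7 and ZSCAN18 held both motifs, ZSCAN1 and ZSCAN2 held the GC box letters alone, and ZSCAN31 and ZSCAN4 held neither.

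Poly(A) RNA was counted per gene at 35418732 to 85991812 counts per HCT116 library and 26700853 to 55732013 per DNMT1 KO library. Values are CPM, each gene's counts relative to the library total after scaling by TMM, and RPKM is the same value per kilobase of exon. DNMT1 itself stood at 89.8 to 263 CPM in HCT116 and at 14.1 to 22.3 CPM in DNMT1 KO, without overlap. Of 10 colorectal epithelial markers, 4 were called lower and 1 higher in DNMT1 KO, and KRT20, CDX1 and CEACAM5 were under 0.1 CPM in every library of both lines. Summed over the list they ranged from 2520 to 6130 CPM in HCT116 and from 645 to 1431 CPM in DNMT1 KO. Mesenchymal markers summed to 11.6 to 27.2 CPM and 636 to 970 CPM, with VIM and ZEB1 called higher and COL1A2, DCN and FAP at or near 0. Most of the DNMT1 KO sum was VIM, at 558 to 930 CPM, while COL1A1 ranged from 6.16 to 19.5 CPM in HCT116 and from 2.91 to 14.1 CPM in DNMT1 KO and was not called, at a log2 fold change of -0.90. The part of these differences between the lines in the values below was not tested. In such bulk samples, fewer expressing cells and less RNA per cell cannot be told apart.

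The family spanned a wide range of expression. The highest member was ZKSCAN1, a KRAB-bearing factor whose transcript is also known as the source of an abundant circular RNA, at a mean of 23.6 RPKM over all libraries. It stood at 92.4, 142 and 382 CPM (lowest, median and highest) in HCT116 and at 232, 289, 513 and 200 CPM in DNMT1 KO replicates 1 to 4. The groups overlapped, because HCT116 replicates 2 and 3, at 340 and 382 CPM, lay above 3 of the 4 DNMT1 KO libraries. Next came ZKSCAN8 at 12.5 RPKM, ZKSCAN5 at 8.35 RPKM, ZSCAN29 at 8.25 RPKM and ZSCAN26 at 8.11 RPKM, all of them overlapping between the lines. The order of the last 3 was not separable from the spread between libraries: over HCT116 alone ZKSCAN5 ranged from 4.77 to 9.25 RPKM and ZSCAN26 from 4.49 to 10.5 RPKM. In total 19 members had a mean of 1 RPKM or more.

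**Figure D1:**
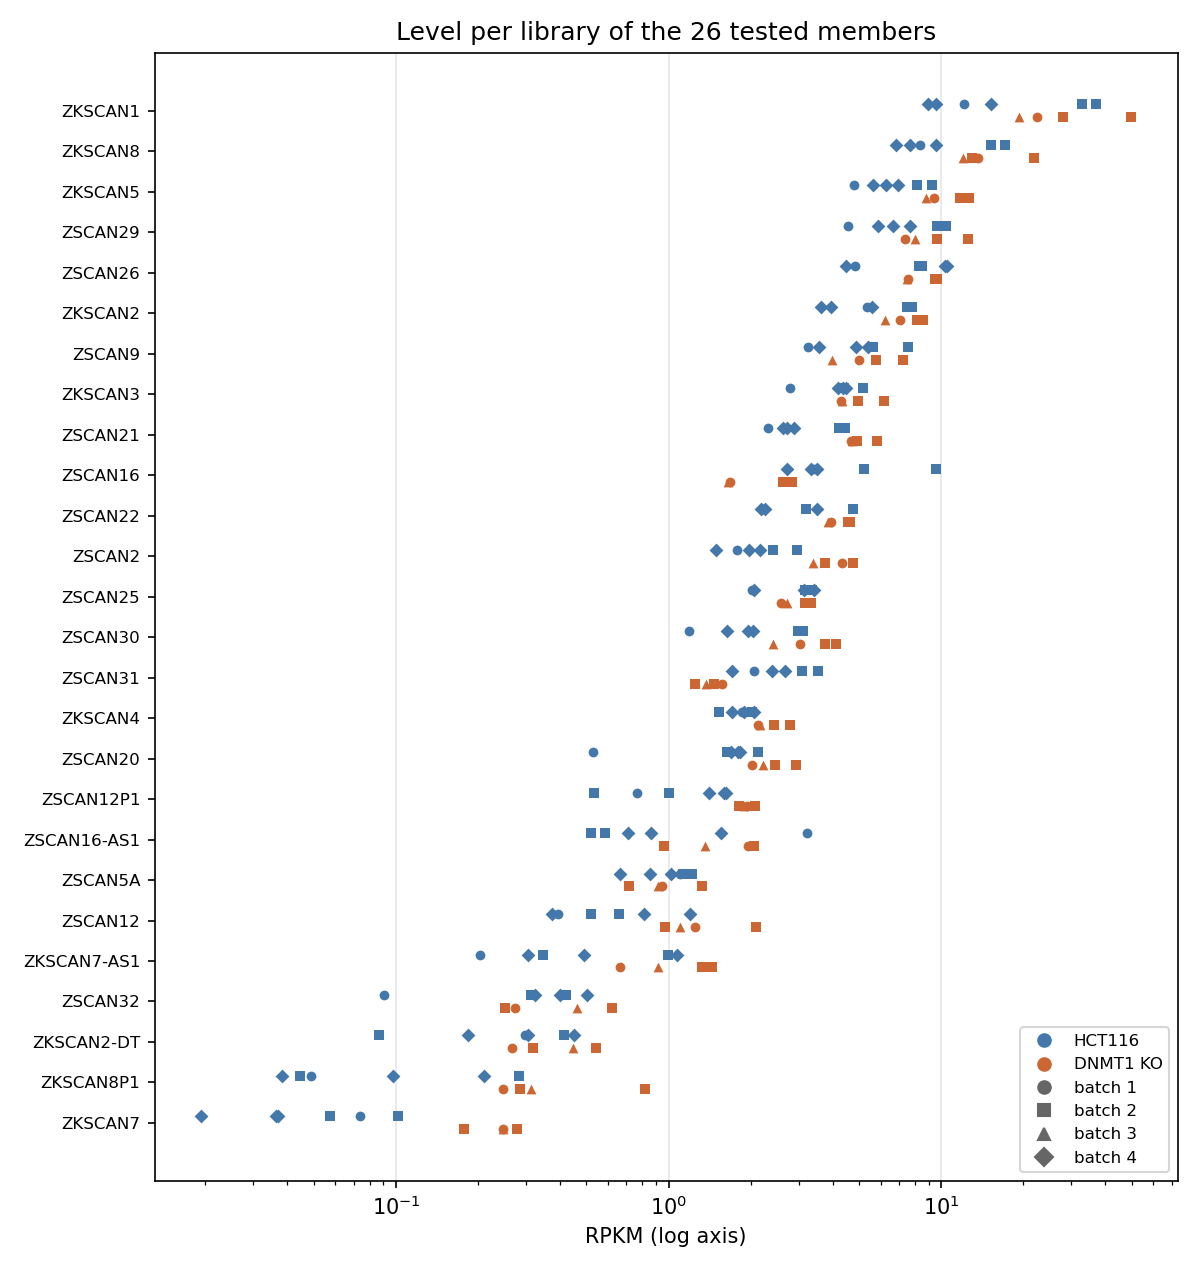
RPKM (log axis) of the 26 tested members in each library, ordered by mean level, with HCT116 in blue above DNMT1 KO in orange and the batch given by the shape of the point. Levels run from 0.128 RPKM on average for ZKSCAN7 to 23.6 RPKM for ZKSCAN1, and the squares of batch 2 hold the highest HCT116 library for 17 of the 26 members.

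The comparison of DNMT1 KO with HCT116 asks which genes differ in expression between the lines. All DNMT1 KO libraries come from a single derivative line, so reduced DNMT1 and the history of that line cannot be told apart. Of the 38 members, 26 had enough counts to be tested by edgeR's quasi-likelihood test across 19279 genes. A single member rose past both limits (a log2 fold change above 1 at a Benjamini-Hochberg adjusted p below 0.05), 1 of 26, against 7.42% of all tested genes. No member fell past both limits, against 6.49% of all tested genes. At an unadjusted p under 0.05, edgeR had 7 members higher, against 13.3% of all tested genes, and 2 lower, against 14.3%. DESeq2 called 3 members higher (ZKSCAN7, ZKSCAN8P1 and ZSCAN12), against 8.45% of the 19267 genes to which it gave an adjusted p, and 1 lower, ZSCAN16, against 7.51%. Most members stayed inside the fold limit: 22 of 26 had a log2 fold change between -1 and 1, as did 79.6% of all tested genes. Over the tested members the log2 fold change had a median of 0.46, and over all tested genes one of -0.07. Of the members, 23 of 26 had a log2 fold change above 0, against 45.6% of all tested genes. Scaling by library totals alone moved the median of all tested genes to 0.14 and that of the members to 0.67, and it moved the share of higher genes among all called genes from 53.4% to 66.3%. Members are not independent replicates, since clusters share position and sequence, and these medians carry no test. The labels do not say what a replicate is, whereas the study describes the replicates of its expression measurements as cultures grown independently.

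**Figure D2:**
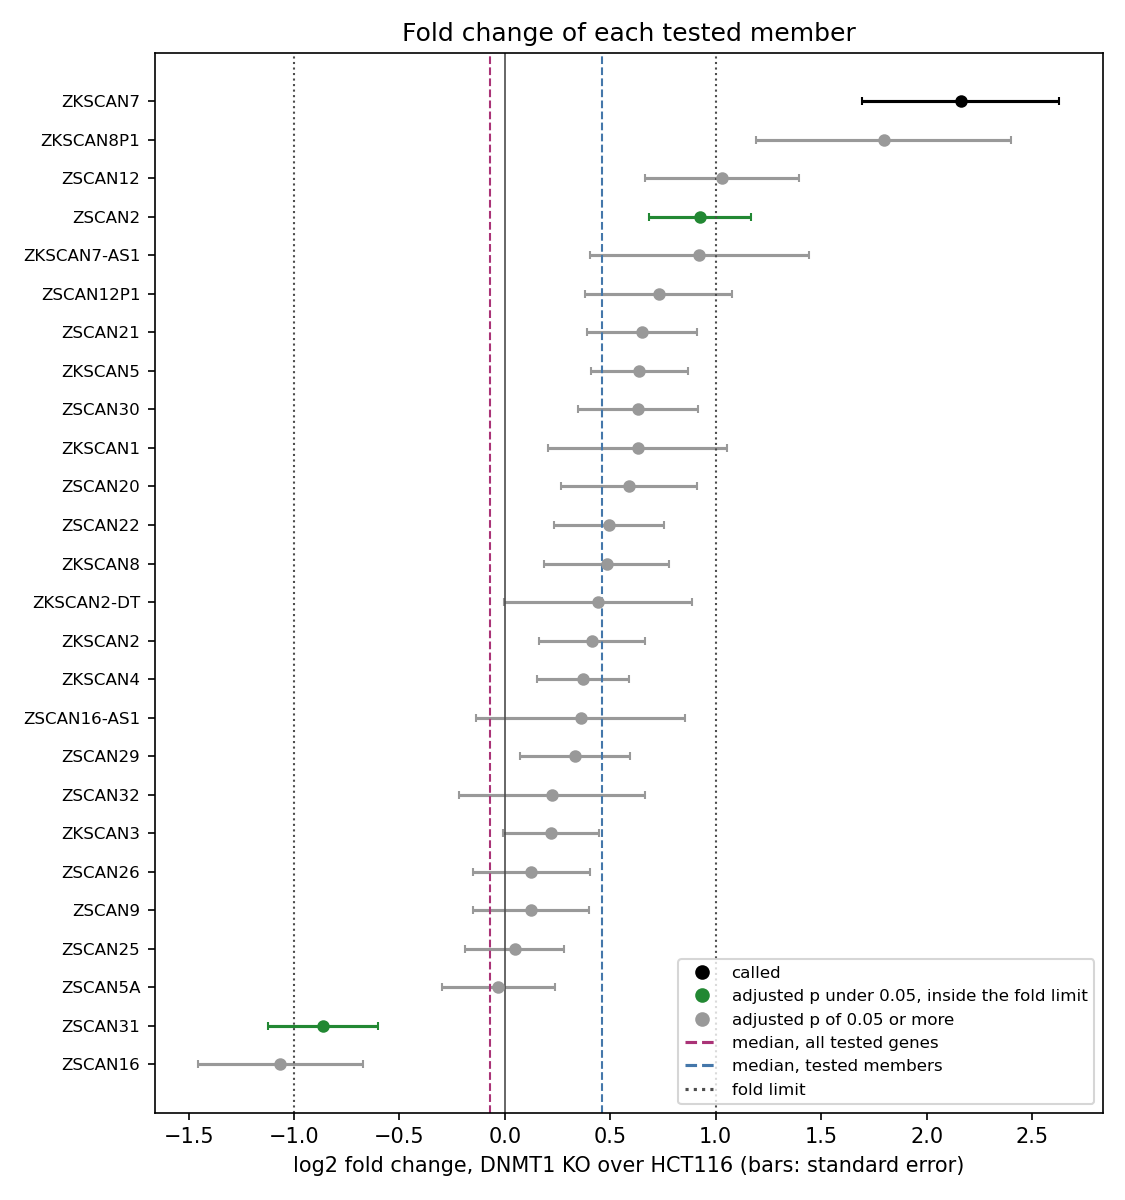
Log2 fold change of DNMT1 KO over HCT116 for each tested member with its standard error from edgeR, ordered by size. Dotted lines mark the fold limit and dashed lines the medians of all tested genes (-0.07) and of the members (0.46); ZKSCAN7 at 2.16 is the member past both limits, and ZSCAN16 and ZSCAN31 lie lowest.

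ZKSCAN7 (ENSG00000196345, hg38 chromosome 3, 44555193 to 44594173, plus strand), which encodes a KRAB and SCAN zinc finger protein, was the member that rose. It was measured at 0.0813, 0.198 and 0.428 CPM (lowest, median and highest) in HCT116 and at 1.04, 0.746, 1.17 and 1.04 CPM in the DNMT1 KO replicates. Every DNMT1 KO library lay above every HCT116 library, but the level remained low in both lines, at 7 to 19 counts per HCT116 library and 30 to 74 per DNMT1 KO library. The log2 fold change came to 2.16 (SE 0.47, edgeR adjusted p = 0.00462), from 0.228 ± 0.126 CPM (SD, n = 6) to 1.00 ± 0.181 CPM (SD, n = 4). Within batch 1 the log2 ratio was 1.74 and within batch 2 it was 1.52. With batch as a term the log2 fold change was 1.58 and the adjusted p of 0.0599 no longer passed. Its antisense neighbour ZKSCAN7-AS1, which shares 25% of its exon bases with ZKSCAN7, had a log2 fold change of 0.92 (SE 0.52, edgeR adjusted p = 0.276). ZKSCAN7 shares 6.5% of its exon bases with other genes. Where genes share exons without a strand setting, the reads of one cannot be told from those of the other.

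Among ZSCAN genes, ZSCAN2 rose without reaching the fold limit. This zinc finger gene (ENSG00000176371, chromosome 15, 84600986 to 84627796, plus strand) stood at 7.27, 10.1 and 14.5 CPM in HCT116 and at 21.1, 23.3, 18.2 and 16.5 CPM in the DNMT1 KO replicates. The groups did not overlap. The log2 fold change came to 0.93 (SE 0.24, edgeR adjusted p = 0.0161), with log2 ratios of 1.28 in batch 1 and 0.66 in batch 2. The adjusted p rose above 0.05 without DNMT1 KO replicate 1 (0.0599) and without DNMT1 KO replicate 2 (0.0641). It was also above 0.05 in batches 1 and 2 without a batch term (0.111) and with one (0.0725), with the replicate number as a block (0.12) and in batch 2 alone (0.348). It was under 0.05 in 15 of 21 alternatives, and the fold limit was passed without HCT116 replicate 3 (1.08), without DNMT1 KO replicate 4 (1.00) and with library totals alone (1.13). ZSCAN2 shares 27.7% of its exon bases with other genes, ZSCAN2-AS1 among them, and ZSCAN2-AS1 itself had 1 to 13 counts per library.

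ZSCAN31 was the member that fell at an adjusted p under 0.05. The gene (ENSG00000235109, chromosome 6, 28324693 to 28356271, minus strand) encodes a SCAN zinc finger protein and shares no exon bases with another gene. It was measured at 8.48, 12.6 and 17.5 CPM in HCT116 and at 7.81, 7.29, 6.17 and 6.78 CPM in the DNMT1 KO replicates. All DNMT1 KO libraries lay below all HCT116 libraries, although DNMT1 KO replicate 1 and HCT116 replicate 7 were close. The log2 fold change came to -0.86 (SE 0.26, edgeR adjusted p = 0.0355), with log2 ratios of -0.38 in batch 1 and -1.28 in batch 2. This p was under 0.05 in 7 of 21 alternatives. It was above 0.05 with library totals alone (0.112), without a filter on low counts (0.0589), under a minimum of 10 counts per library (0.0533) and with the replicate number as a block (0.0949). In batches 1 and 2 it was 0.0733 without a batch term and 0.0626 with one, and in batch 2 alone it was 0.0828. It was also above 0.05 in 7 of the 10 fits that left out 1 library, those without HCT116 replicate 2, 3 or 8 or any of the DNMT1 KO replicates, with an adjusted p of up to 0.106. By the adjusted p alone, 2 tested members were higher (ZKSCAN7 and ZSCAN2) and 1 was lower, against 8.45% and 7.61% of all tested genes.

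**Figure D3:**
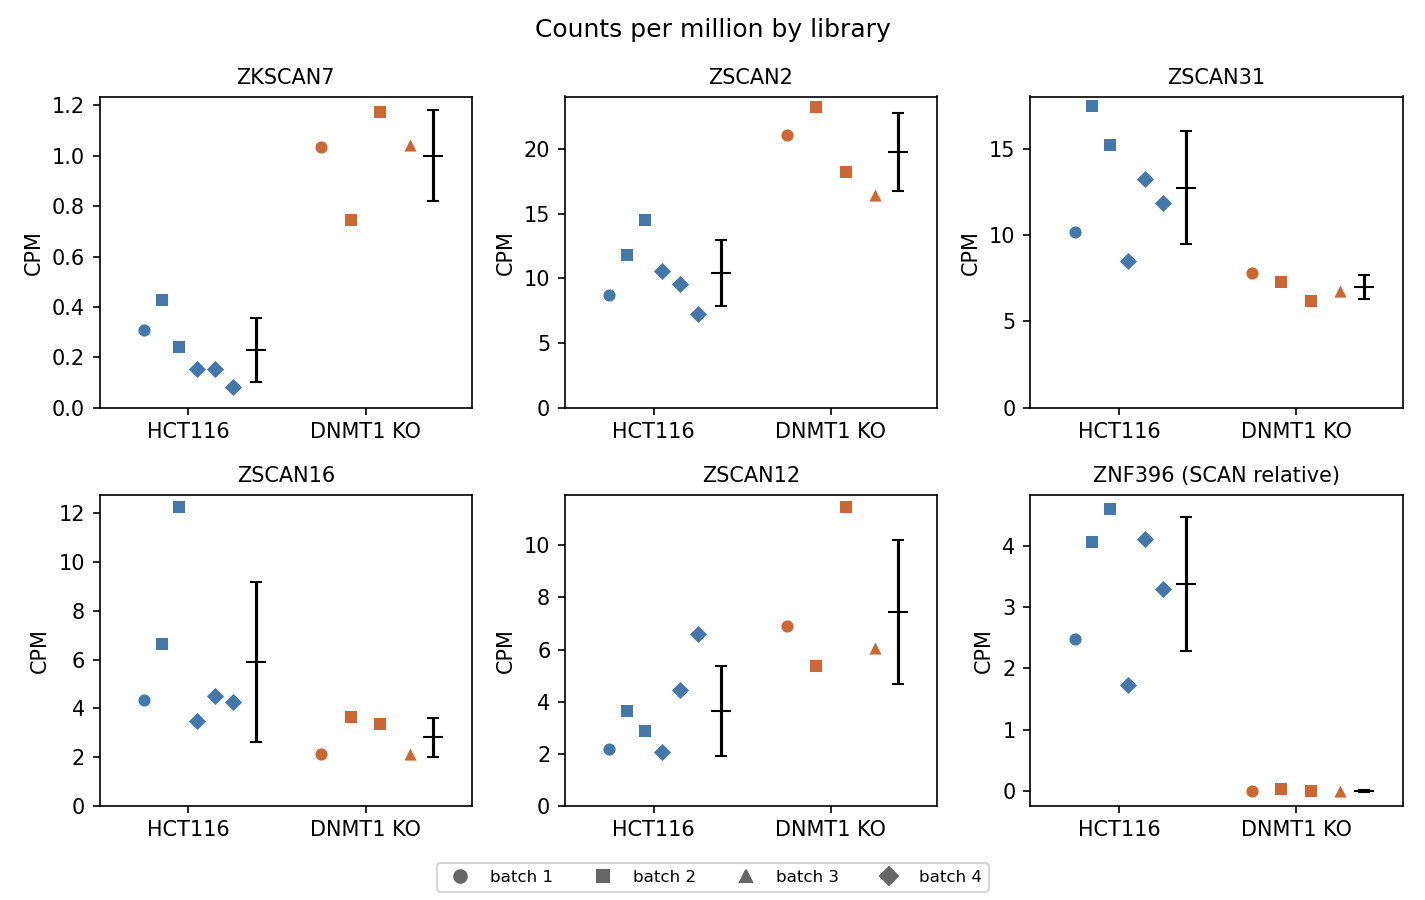
CPM of 5 members and of the SCAN relative ZNF396 in each library, with the shape of the point giving the batch and the bar giving the mean ± SD of the group (n = 6 and n = 4). ZKSCAN7, ZSCAN2, ZSCAN31 and ZNF396 do not overlap between the lines, whereas ZSCAN16 and ZSCAN12 do.

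A further 3 members passed the fold limit but not the adjusted p. ZSCAN12, at 1.03 on the log2 scale (SE 0.37, edgeR adjusted p = 0.0723), was measured at 2.06, 3.25 and 6.61 CPM in HCT116 and at 6.90, 5.35, 11.5 and 6.05 CPM in the DNMT1 KO replicates. HCT116 replicate 9 overlapped the DNMT1 KO libraries, and without it the log2 fold change was 1.29 with an edgeR adjusted p of 0.0198. Without DNMT1 KO replicate 3 it was 0.77 with an edgeR adjusted p of 0.227, and 9 of the 10 fits that left out 1 library did not pass. ZKSCAN8P1, a pseudogene copy beside ZKSCAN8, had a log2 fold change of 1.80 (SE 0.60, edgeR adjusted p = 0.0576). It was measured at 0.0975, 0.186 and 0.722 CPM in HCT116 and at 0.631, 0.729, 2.10 and 0.799 CPM in the DNMT1 KO replicates, so that DNMT1 KO replicate 3 stood well above the rest. Its adjusted p was 0.0162 without HCT116 replicate 3 and 0.044 without HCT116 replicate 9, whereas without DNMT1 KO replicate 3 the log2 fold change was 1.24 with an edgeR adjusted p of 0.25. ZSCAN16 had a log2 fold change of -1.06 (SE 0.39, edgeR adjusted p = 0.0825). It was measured at 3.48, 4.43 and 12.2 CPM in HCT116 and at 2.15, 3.64, 3.35 and 2.12 CPM in the DNMT1 KO replicates, where 1 DNMT1 KO library exceeded the lowest HCT116 library. Reads of a pseudogene and of its parent gene can be near-identical, so the values of ZKSCAN8P1 and ZSCAN12P1 are uncertain.

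Without regard to the test, the libraries of the lines did not overlap for 6 of the 26 tested members. Of these, 5 stood higher in DNMT1 KO (ZKSCAN7, ZSCAN2, ZSCAN21, ZKSCAN4 and ZSCAN12P1), against 8.4% of all tested genes, and ZSCAN31 stood lower, against 6.79%. ZSCAN21, known as an activator of alpha-synuclein transcription, was measured at 4.95, 5.99 and 9.49 CPM in HCT116 and at 10.0, 12.4, 10.5 and 10.0 CPM in the DNMT1 KO replicates. Its log2 fold change came to 0.65 (SE 0.26, edgeR adjusted p = 0.112), and 41.1% of its exon bases are shared with ZNF3. ZKSCAN4 ranged from 8.16 to 11.0 CPM in HCT116 and from 11.4 to 14.9 CPM in DNMT1 KO, at a log2 fold change of 0.37 (SE 0.22, edgeR adjusted p = 0.30). ZSCAN12P1 ranged from 0.883 to 2.68 CPM and from 3.00 to 3.43 CPM, at 0.73 on the log2 scale (SE 0.35, edgeR adjusted p = 0.194). Its log2 ratio was 1.34 in batch 1 and 1.33 in batch 2. With batch as a term its log2 fold change was 1.33 (edgeR adjusted p = 0.0226), and it was called in that 1 of 21 alternatives.

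The 7 coding ZKSCAN genes and the 14 tested coding ZSCAN genes are described side by side. All 7 ZKSCAN genes had a log2 fold change above 0, from 0.22 for ZKSCAN3 to 2.16 for ZKSCAN7, with a median of 0.48. The ZSCAN genes ranged from -1.06 for ZSCAN16 to 1.03 for ZSCAN12, with a median of 0.28, and 11 of 14 lay above 0. ZKSCAN3, known as a repressor of autophagy genes, was measured at 13.4, 21.1 and 24.9 CPM in HCT116 and at 20.6, 23.7, 29.7 and 20.7 CPM in the DNMT1 KO replicates. Its log2 fold change came to 0.22 (SE 0.23, edgeR adjusted p = 0.59). Of 16 autophagy and lysosome genes, edgeR and DESeq2 called 0, while edgeR called 7.42% of all tested genes higher and 6.49% lower. At an unadjusted p under 0.05, edgeR had 0 of the 16 higher, against 13.3% of all tested genes, and 4 lower, against 14.3%. Their median log2 fold change was -0.42, against -0.07 over all tested genes. Whether these values relate to ZKSCAN3 was not tested.

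On chromosome 6, neighbouring members had log2 fold changes of both signs. Between 28091154 and 28443502 lie 13 members, of which 11 were tested. Their changes ran from -1.06 to 1.80, with a median of 0.36 and 9 of 11 above 0. ZSCAN16 and ZSCAN31 were the ones below 0. Between ZSCAN16 and ZSCAN31 lie, among others, ZKSCAN8 at 0.48 (SE 0.30), ZSCAN9 at 0.12 (SE 0.27), ZKSCAN4 at 0.37 (SE 0.22) and ZSCAN26 at 0.13 (SE 0.28), and ZSCAN12 lies beyond. Of SCAN-domain genes with other names in or next to the same stretch, ZNF165, known as a cancer-testis antigen, had a log2 fold change of -0.94 (SE 0.25, edgeR adjusted p = 0.0171). PGBD1, whose product joins a SCAN domain to a domesticated transposase, had one of 0.71 (SE 0.23, edgeR adjusted p = 0.0469). ZSCAN16-AS1, which shares 29.7% of its exon bases with other genes, went from 1.12, 1.70 and 6.96 CPM in HCT116 to 4.22, 4.46, 2.08 and 2.95 CPM in the DNMT1 KO replicates, with HCT116 replicate 1 the highest of all. Its log2 ratio was -0.72 in batch 1 and 1.46 in batch 2, opposite in sign.

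At the end of chromosome 19, 9 members lie between 56189570 and 58342332, and only ZSCAN5A and ZSCAN22 among them were tested. ZSCAN22 was measured at 10.2, 12.7 and 22.1 CPM in HCT116 and at 18.4, 21.5, 21.2 and 18.0 CPM in the DNMT1 KO replicates, at a log2 fold change of 0.49 (SE 0.26, edgeR adjusted p = 0.246). ZSCAN5A stood at a log2 fold change of -0.03 (SE 0.27, edgeR adjusted p = 0.956), a sign that turned to 0.17 with library totals alone. On chromosome 7, the 4 members between 99504651 and 100065038 had log2 fold changes of 0.64 (ZKSCAN5, SE 0.23), 0.05 (ZSCAN25, SE 0.23), 0.63 (ZKSCAN1, SE 0.42) and 0.65 (ZSCAN21, given above), none with an adjusted p under 0.05. The other tested members were ZSCAN20 (0.59, SE 0.32), ZSCAN29 (0.33, SE 0.26), ZSCAN30 (0.63, SE 0.29), ZSCAN32 (0.22, SE 0.44), ZKSCAN2 (0.41, SE 0.25) and ZKSCAN2-DT (0.44, SE 0.45), with edgeR adjusted p from 0.165 for ZSCAN30 to 0.793 for ZSCAN32. Of the exon bases of ZSCAN32, 75.3% are shared with other genes.

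The 12 members that were not tested had 0 to 25 counts per library in both lines. ZSCAN1, ZSCAN23 and ZKSCAN7P1 had no count in any of the 10 libraries. Over all libraries of a group, 3 counts, the limit that a count of 0 allows, correspond to 0.00892 CPM in HCT116 and 0.016 CPM in DNMT1 KO. This covers counting error only. ZSCAN4, known for its activity in early embryos, had 1 count in all, in DNMT1 KO replicate 4. ZSCAN18 had 0 to 4 counts per HCT116 library and 1 to 4 per DNMT1 KO library. These levels lie at the limit of detection, so that a difference between the lines was not detectable at this depth. The CpG-rich windows of ZSCAN1 and ZSCAN18 and the CpG-poor window of ZSCAN4, printed above, thus belonged to genes with next to no counts in either line.

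ZSCAN10, a factor of embryonic stem cells, had 0 to 6 counts per HCT116 library and 3, 2, 25 and 1 counts in the DNMT1 KO replicates, the 25 standing alone in replicate 3. ZSCAN5B and ZSCAN5C, close copies of ZSCAN5A, had 2 to 16 and 2 to 4 counts in HCT116 and 2 to 6 and 1 to 11 in DNMT1 KO. ZSCAN5DP had 0 to 2 counts in both lines, and ZSCAN5A-AS1 had 0 to 7 in HCT116 and 0 to 13 in DNMT1 KO. ZSCAN2-AS1 had 1 to 11 counts in HCT116 and 3 to 13 in DNMT1 KO. The pseudogene ZKSCAN8P2 was the untested member whose groups stood apart. It had 0 counts in every HCT116 library and 2, 2, 5 and 1 counts in the DNMT1 KO replicates. Against a floor of 3 counts over the HCT116 group, its DNMT1 KO level was 5.98-fold higher. That ratio leaves out the counting error of the 10 DNMT1 KO counts and is not a lower limit. Among tested genes 8.4% stood apart and higher, and the share among untested genes was not counted. ZKSCAN8P2 lies beside ZKSCAN8 and ZKSCAN8P1 and may share reads with them, so its value is uncertain.

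**Figure D4:**
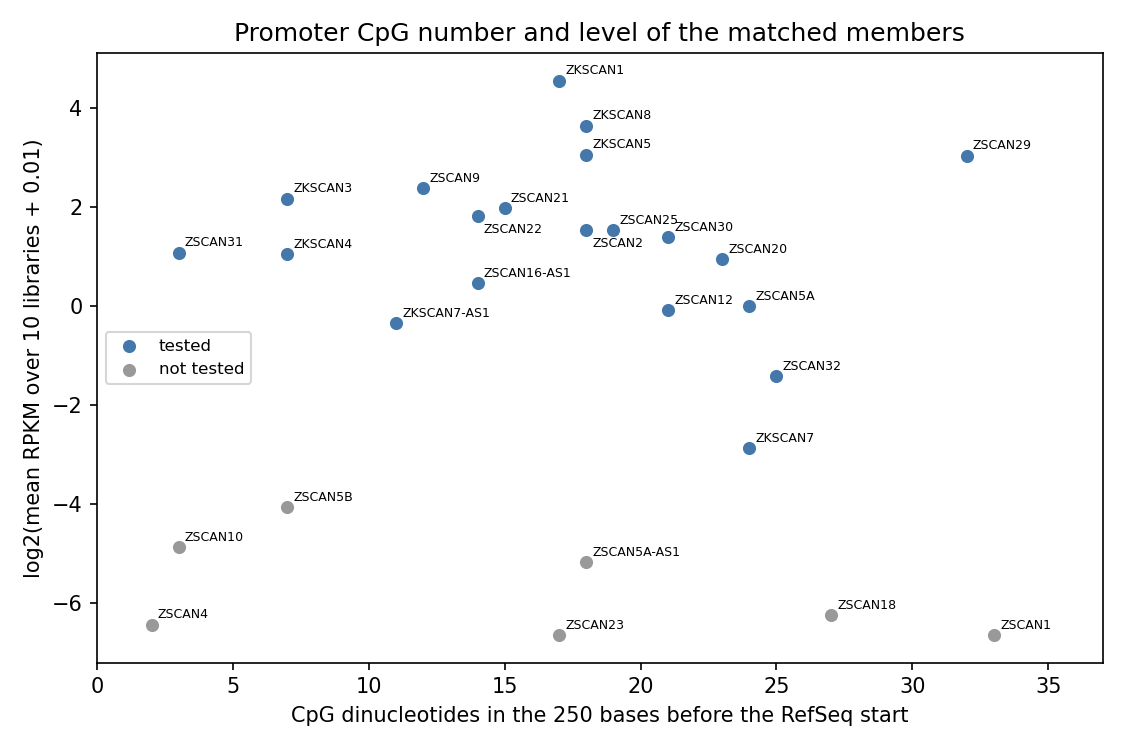
Number of CpG dinucleotides in the 250 bases before the nearest RefSeq start against log2 of mean RPKM over the 10 libraries plus 0.01, for the 27 matched members. The members not tested (grey) span CpG numbers from 2 (ZSCAN4) to 33 (ZSCAN1) and the tested ones (blue) from 3 (ZSCAN31) to 32 (ZSCAN29).

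Lists that bear on the known activity of the untested members were read for comparison. Of 18 cleavage-stage genes of the DUX4 programme, which include ZSCAN4 and ZSCAN5B, only RFPL2 and KHDC1L were tested. Neither was called by edgeR or DESeq2, and neither had an unadjusted p under 0.05. Of 12 pluripotency factor genes, which include ZSCAN10, LIN28B and SALL4 were tested, with a median log2 fold change of -0.31. Of these, 0 were called by edgeR or DESeq2 and 0 had an unadjusted p under 0.05. Over all tested genes, edgeR called 7.42% higher and 6.49% lower. So few genes were tested that neither list can be described as a whole. Among the untested genes of both lists, only LIN28A and TDGF1 did not overlap between the lines. LIN28A had 119 counts over HCT116 and 13 over DNMT1 KO, and TDGF1 had 2 and 16.

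The libraries of HCT116 differed among themselves for many members, with batch 2 often highest. For 17 of the 26 tested members the highest HCT116 library was replicate 2 or 3, both of batch 2, and for 15 of 26 the highest DNMT1 KO library was replicate 3, also of batch 2. ZKSCAN1 varied by 4.14-fold between HCT116 libraries and ZSCAN20 by 4.01-fold. In a test of HCT116 batch 4 against HCT116 batches 1 and 2, edgeR called 0 of 26 tested members, against 8.03% of 18656 genes, and 5 members had an unadjusted p under 0.05, against 26.1% of those genes. The closest was ZKSCAN1, at a log2 fold change of -1.30 in batch 4 (SE 0.41, edgeR adjusted p = 0.0642). The others were ZSCAN16 at -0.95, ZKSCAN8 at -0.77, ZKSCAN2 at -0.68 and ZSCAN12P1 at 0.99. For 4 of these 5 members, all but ZSCAN16, the difference within HCT116 was larger in size than the difference between the lines. ZKSCAN7, the member called between the lines, had the largest difference in size within HCT116, at -1.35 in batch 4 (SE 0.67, edgeR adjusted p = 0.214). In this test the median log2 fold change was -0.29 over the tested members and 0.0067 over all genes. HCT116 levels in batch 4 thus enter the comparison of the lines, and their part in it was not tested.

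Within the batches that hold both groups, 22 of 26 tested members had the sign of the overall fit in batch 1 and in batch 2. The exceptions were ZSCAN16-AS1 and ZKSCAN2-DT, which were lower in DNMT1 KO in batch 1, and ZSCAN9 and ZSCAN25, which lay just under 0 in batch 2. The median log2 ratio of the tested members was 0.76 in batch 1, where each group is 1 library, and 0.28 in batch 2, while the medians of all tested genes with counts were -0.02 and 0.04. ZSCAN20 showed the widest gap among coding members that agree in sign, at 1.93 in batch 1 and 0.52 in batch 2, where HCT116 replicate 1 was its lowest library by far (2.82 CPM against 8.66 to 11.3 CPM).

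**Figure D5:**
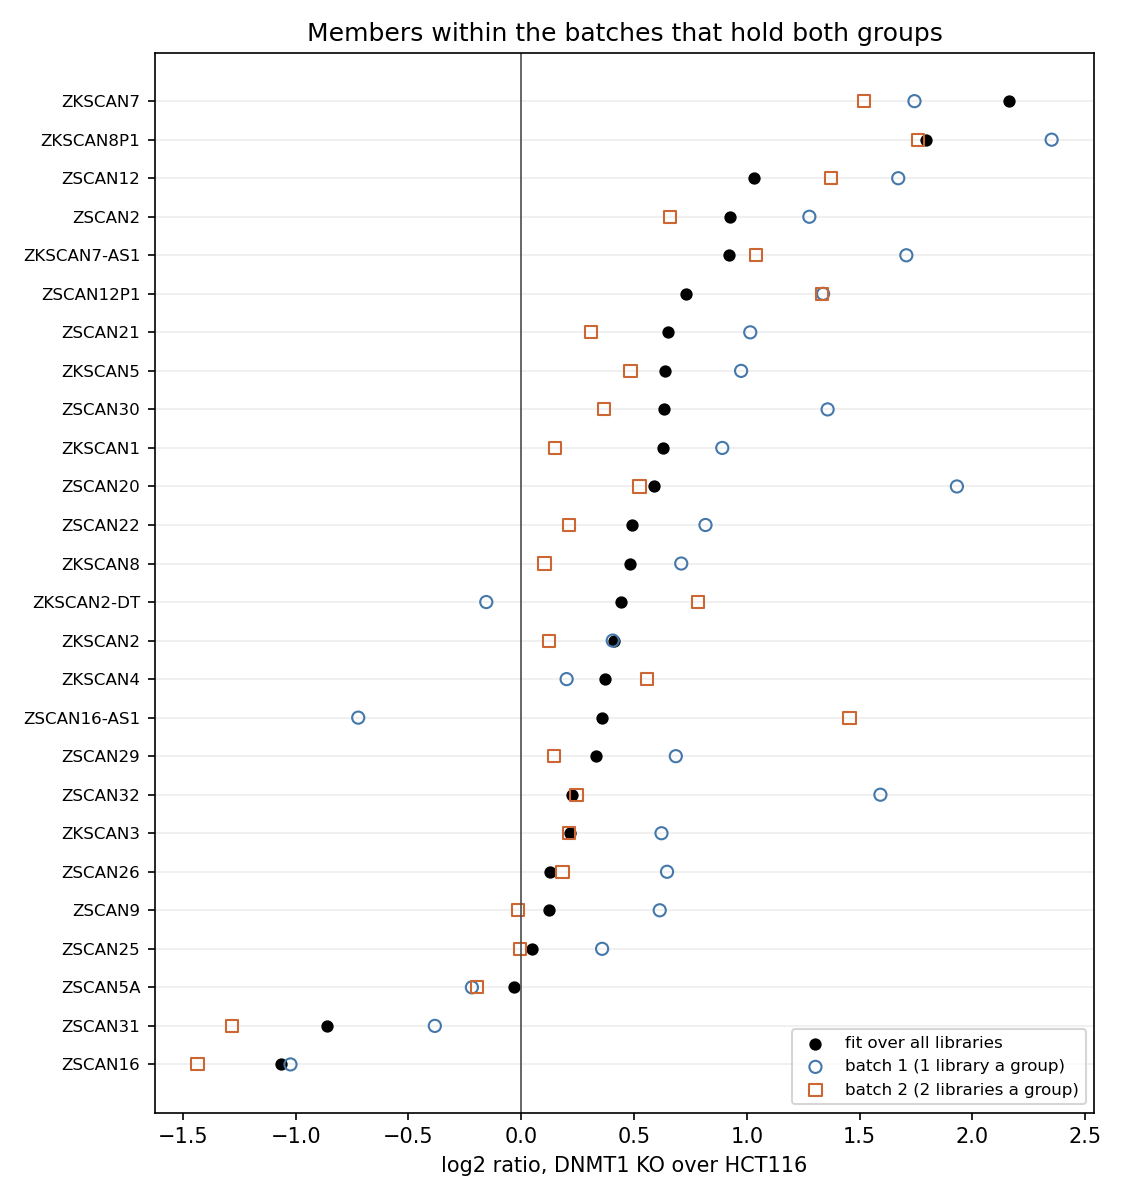
Log2 ratio of DNMT1 KO over HCT116 for each tested member within batch 1 (open circles, 1 library a group) and batch 2 (open squares, 2 libraries a group), beside the log2 fold change of the fit over all libraries (black). In 22 of 26 members both batches share the sign of the fit, and ZSCAN16-AS1 has the widest gap between the batches.

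Genes that carry a SCAN domain under other names were read from a list of 28, of which 25 were tested. A single relative of the 25 was called, against 13.9% of all tested genes. It was ZNF396, which fell. This gene of chromosome 18 (35366694 to 35377337, minus strand) stood at 1.73, 3.67 and 4.60 CPM in HCT116 and had 2 counts in all in DNMT1 KO, both in replicate 2. The log2 fold change came to -8.03 (SE 0.73, edgeR adjusted p = 2.28e-06). From summed counts, 1104 and 2, the HCT116 level was 308 times that of DNMT1 KO, with a 95% exact counting interval of 85.0 to 2540 times. ZSCAN30, which lies nearby on the same strand, was measured at 9.81, 16.5 and 25.7 CPM in HCT116 and at 25.1, 31.0, 33.9 and 20.1 CPM in the DNMT1 KO replicates, at a log2 fold change of 0.63. By the adjusted p alone, ZNF165 and ZNF232 (-0.91, SE 0.23, edgeR adjusted p = 0.0141) were also lower, and PGBD1 and ZNF445 (0.85, SE 0.25, edgeR adjusted p = 0.0317) were higher. ZNF445, known for its part in keeping imprints, lies near ZKSCAN7 on chromosome 3. The median log2 fold change of the relatives was 0.12, against 0.46 for the members. Of 374 other tested coding genes named ZNF or ZFP, 22 were called higher, against 7.42% of all tested genes, and 50 lower, against 6.49%. Together 19.3% of them were called, against 13.9% of all tested genes, and their median was 0.08.

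The corepressor genes that KRAB proteins work through were also read, 14 in all and all tested. TRIM28, the direct partner of the KRAB domain, stood at 583, 754 and 1646 CPM in HCT116 and at 1148, 887, 566 and 1095 CPM in the DNMT1 KO replicates, with overlap (log2 fold change -0.04, SE 0.34, edgeR adjusted p = 0.95). CBX5, which encodes a heterochromatin protein that binds methylated histone H3, rose by a log2 fold change of 1.08 (SE 0.24, edgeR adjusted p = 0.00483). ATF7IP2, related to the SETDB1 partner ATF7IP, rose by 1.06 (SE 0.30, edgeR adjusted p = 0.0265). HDAC1, a histone deacetylase, had a log2 fold change of -1.31 (SE 0.24, edgeR adjusted p = 0.00133). The list of 14 thus held 2 genes called higher, against 7.42% of all tested genes, and 1 lower, against 6.49%. Its median of -0.09 became 0.13 with library totals alone. ZNF274 is on this list and among the SCAN relatives, and was not called (0.66, SE 0.26, edgeR adjusted p = 0.113).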

How the data were processed

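The authors trimmed poly(A)-selected, stranded, paired-end reads (FastQC 0.11.4, Trim Galore 0.4.1), mapped them with Bowtie2, which does not split reads over junctions, to hg38, removed reads of low mapping quality and summed exonic reads per gene with featureCounts. No strand option is given in the sources used here. The deposited values are raw counts of 58884 Ensembl genes per library; 41967 have a symbol in GENCODE 44, which mapped the members. Another 3 tables have no listed sample and were not used here.

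Differences in counts were assessed by edgeR 4.0.16 in R 4.3.3 (TMM, filterByExpr defaults, glmQLFit and glmQLFTest, group alone, two-sided) over 19279 genes with Benjamini-Hochberg adjustment. Calls needed both an adjusted p below 0.05 and a log2 fold change beyond 1 or -1. Standard errors are the log2 fold change over the square root of the F statistic. The script was tested on simulated data. RPKM used the exon length in the count tables. All called members were named, as were members with an adjusted p under 0.05, the 5 with the highest RPKM, untested members and called list genes. Further tested members were described by location or family after their values were seen. Members and lists were chosen with earlier results of these data known. Promoter windows came from RefSeq. A further marker list is not reported here.

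Among genes with 1 to 10 counts, 64.4 to 70.0% of values were even in 9 libraries and 39.9% in DNMT1 KO replicate 4. The 9 may count each mate of a pair, so counting intervals and floors, which cover counting error only, may be too narrow. Alternatives were RLE factors, library totals alone, no filter, at least 10 counts in every library, DESeq2 1.42.0, batch as a term, batches 1 and 2 with or without that term, a replicate block, halved counts, each library left out, and, chosen after seeing the data, batch 2 alone.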

Additional observations from a re-analysis of the deposited data

Results flagged for a closer look

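Of 54 groups of 4 or 6 libraries (26 tested members and ZNF396, in each line), 5 held a library apart from the others by Dixon's criterion at 95%, which chance alone flags in about 1 in 20 groups. In HCT116, ZSCAN20 was lowest in replicate 1, at 2.82 CPM against 8.66 to 11.3 CPM, and ZSCAN16 was highest in replicate 3, at 12.2 CPM against 3.48 to 6.65 CPM. In DNMT1 KO, replicate 3 was highest for ZKSCAN8, at 165 CPM against 90.8 to 104 CPM, and for its pseudogene copy ZKSCAN8P1, at 2.10 CPM against 0.631 to 0.799 CPM. ZNF396 had 0.0355 CPM in DNMT1 KO replicate 2 and no counts in the other DNMT1 KO libraries. With the others at 0, any count in 1 library meets the criterion, so the rate of 1 in 20 does not apply to this group. Without DNMT1 KO replicate 3 the log2 fold change of ZKSCAN8 was 0.27 and that of ZKSCAN8P1 was 1.24. Without HCT116 replicate 3 that of ZSCAN16 was -0.68, and without HCT116 replicate 1 that of ZSCAN20 was 0.44. Why these libraries stand apart was not tested.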

How the results depend on the processing

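The count of members called higher, 1 of 26 in the main comparison, was 4 with library totals alone and 3 with DESeq2. With no filter it was 3 of 35 members, among them ZKSCAN8P2, which the main comparison did not test. It was 2 with batch as a term (ZSCAN12 and ZSCAN12P1) and 2 with halved counts. It was 0 in batch 2 alone and 1 to 3 with 1 library left out. With at least 10 counts in every library, which leaves 23 members tested and not ZKSCAN7, it was 0. Over all tested genes the number called higher was 1431 of 19279 in the main comparison. That number was 1878 with library totals alone, 1629 with DESeq2 and 1965 of 35231 with no filter. With batch as a term it was 1623, and with halved counts 1284 of 17691. ZKSCAN7 was called in 15 of the 20 alternatives that gave it a value, and lost the call with batch as a term, in batches 1 and 2 with or without that term, under the replicate block and in batch 2 alone, at log2 fold changes of 1.51 to 1.58. In batches 1 and 2 with or without the term the member called higher was ZSCAN12 instead. The members called lower, 0 in the main comparison, became 1 (ZSCAN16) with DESeq2, with batch as a term and in batches 1 and 2 with that term. Over all tested genes the number called lower was 1251 of 19279 in the main comparison. It was 1447 with DESeq2, 1492 with batch as a term and 1303 of 18681 in batches 1 and 2 with that term. All tested genes fell to 734 higher and 766 lower with at least 10 counts in every library, where 15355 were tested, and to 815 and 798 in batch 2 alone. SCAN relatives called higher, 0 in the main comparison, were 1 with library totals alone (ZNF445), with no filter (PEG3), with batch as a term (ZNF483) and under the replicate block (ZNF483), and 0 to 1 with 1 library left out. Those called lower were 0 with at least 10 counts in every library, where ZNF396 was not tested, 2 under the replicate block (ZNF396 and MZF1) and 1 to 2 with 1 library left out, and the cause was not tested otherwise. No member was called between the HCT116 batches with library totals alone either. Log2 fold changes near 0 turned in sign. ZSCAN5A was at 0.17 with library totals alone and at -0.22 to 0.12 with 1 library left out. ZSCAN32 ranged from -0.041 to 0.39, ZSCAN9 from -0.022 to 0.31 and ZSCAN25 from -0.031 to 0.12 with 1 library left out, and in batch 2 alone ZSCAN9 was at -0.0098 and ZSCAN25 at -0.00081.

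The replicate block used replicates 1 to 3 of each group. Same-numbered libraries deviated from their group means with correlations of 0.55, -0.27 and 0.37. Libraries with different numbers were not compared, so these values do not settle whether the numbers pair the libraries. Under the block 1 member was called higher, ZKSCAN8P1 (2.10, edgeR adjusted p = 0.0418), and ZKSCAN7 was not (1.58, edgeR adjusted p = 0.113), while 1232 genes were called higher and 1235 lower. Batches 3 and 4 hold 1 group each among the libraries used, so batch and line cannot be told apart there. Depth limits what can be said of the 12 untested members.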
